A study of Mus musculus with 10 samples.

Results

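The claudins expressed by the colon epithelium were examined here as 9 genes: Cldn1, Cldn2, Cldn3, Cldn4, Cldn7, Cldn8, Cldn12, Cldn15 and Cldn23. They were taken by name from a mouse table of 30073 transcripts, in which 13 RefSeq transcripts belong to the 9 genes, and the values of a gene's transcripts were summed. The table names 23037 genes in all, among them 22 other claudins. Levels are in FPKM, fragment counts divided by the length of the transcript and by library size, so that levels of different genes are compared per length.

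The mice were C57BL/6 in a model of colitis-accelerated colon cancer, and the study asked how aspirin (ASA) and curcumin (CUR) in the diet act on it. All 5 groups had 2 libraries each, numbered replicate 0 and replicate 1, and all ate AIN-93M, a purified rodent diet. The Model, ASA, CUR and ASA+CUR groups were injected at 6 weeks of age with azoxymethane (AOM), a colon carcinogen, at 10 mg/kg and later drank 1.2% dextran sulfate sodium (DSS), which injures the colon epithelium, for 7 days. The Model group had no drug, the ASA group 0.02% ASA, the CUR group 2% CUR, and the ASA+CUR group 0.01% ASA with 1% CUR, so that each drug had a lower dose in the combination than alone. The Control group, also labelled with an age of 6 weeks, was injected with saline and had no DSS and no drug. The labels call the 8 AOM/DSS libraries tumor samples and the 2 Control libraries colonic tissue, whereas the extraction protocol describes colon frozen after the proximal end and palpable tumors had been taken away. AOM, DSS and the tissue label therefore cannot be told apart. No source used here gives the age at collection. Whether a group's libraries come from different animals is not labelled, and p-values therefore reflect the spread between libraries only, which may be a technical one.

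Claudins are membrane proteins that cross the membrane several times, line up in strands between neighbouring epithelial cells and form the tight junction. Their extracellular loops either seal the space between the cells or line pores that let selected ions and water through. Claudins named 1, 3, 4, 7 and 8 are usually counted as sealing or barrier claudins, and claudin-2 and claudin-15 as pore-forming for small cations such as sodium. In the gut, claudin-2 is typical of crypt cells, and both pore-forming claudins return sodium to the lumen, where nutrient uptake needs it.

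Promoter sequences of 4 members are given because Cldn4 and Cldn15 carried the changes described below, while Cldn3, the neighbour of Cldn4, and Cldn2, the other pore-forming member, are their closest counterparts. They are the 250 bases before the transcription start in RefSeq on GRCm38.p6, written 5′ to 3′ on the strand of the gene. Capitals mark matches on either strand to TGANTCA, the AP-1 motif, and to TTTAT, the core of the CDX motif. The windows lie at chr5:134946935-134947184 (minus strand) for Cldn4, chr5:134985964-134986213 (plus strand) for Cldn3, chr5:136967619-136967868 (plus strand) for Cldn15 and chrX:139800558-139800807 (plus strand) for Cldn2.
Cldn4: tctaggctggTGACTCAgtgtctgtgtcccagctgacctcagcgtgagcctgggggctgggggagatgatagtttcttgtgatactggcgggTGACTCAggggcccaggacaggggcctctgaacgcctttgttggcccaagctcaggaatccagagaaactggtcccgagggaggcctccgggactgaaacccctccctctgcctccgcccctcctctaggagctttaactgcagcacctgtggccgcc
Cldn3: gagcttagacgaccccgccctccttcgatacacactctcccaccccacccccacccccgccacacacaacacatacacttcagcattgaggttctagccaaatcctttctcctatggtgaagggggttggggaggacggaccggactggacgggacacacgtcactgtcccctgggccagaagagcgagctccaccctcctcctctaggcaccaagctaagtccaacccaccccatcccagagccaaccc
Cldn15: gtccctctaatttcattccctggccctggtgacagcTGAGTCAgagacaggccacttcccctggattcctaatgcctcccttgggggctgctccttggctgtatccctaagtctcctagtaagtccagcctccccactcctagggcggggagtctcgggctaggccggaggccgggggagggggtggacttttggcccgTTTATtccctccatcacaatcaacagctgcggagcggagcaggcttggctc
Cldn2: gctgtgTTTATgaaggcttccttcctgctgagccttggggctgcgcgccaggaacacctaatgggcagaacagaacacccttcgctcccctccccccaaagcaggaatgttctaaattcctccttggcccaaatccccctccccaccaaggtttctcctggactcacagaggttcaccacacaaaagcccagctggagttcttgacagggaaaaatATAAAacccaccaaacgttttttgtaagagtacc
The Cldn4 window held 2 matches to TGANTCA, the Cldn15 window 1, and the Cldn3 and Cldn2 windows none. Across 32851 RefSeq promoter windows of the same length, 6.75% held TGANTCA. The core TTTAT was found at 1 place in the Cldn15 window and at 2 places in the Cldn2 window, 1 of them as ATAAA within the letters TATAAA, and 37.3% of all windows held it. RefSeq promoters were matched for 7 of the 9 members, in 10 windows. None of the 10 windows held ATCAAAG, the TCF/LEF motif (3.21% of all windows), or AACCNGTT, the grainyhead motif (1.79% of all windows). The GC box GGGCGG, found in 32.7% of all windows, occurred once each in the Cldn4, Cldn3 and Cldn15 windows and not in that of Cldn2. No marked match overlapped another, and a match describes letters only, not a bound site.

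The libraries had summed FPKM of 515959 to 720895, and the read depth behind them is unknown, so counting error could not be given. Replicates correlated at 0.986 in the Control group and at 0.947 to 0.977 in the 4 AOM/DSS groups (Pearson's r across genes, which are not independent replicates). All 10 smooth muscle markers fell in the AOM/DSS groups, with a summed level of 297 to 905 FPKM in the 8 AOM/DSS libraries, against 5528 and 9067 FPKM in the Control libraries. The 12 pan-epithelial markers summed to 7035 to 14947 FPKM in the AOM/DSS libraries, against 10999 and 12570 FPKM in the Control libraries. CUR replicate 0 stood apart with the highest epithelial sum, and values without it are given below where they differ. The 10 crypt and progenitor markers summed to 328 to 491 FPKM in AOM/DSS libraries, against 127 and 129 FPKM in Control libraries, and 9 of them rose. The 7 leukocyte markers in the table summed to 299.5 to 1260.4 FPKM in AOM/DSS libraries, against 141 and 183 FPKM in Control libraries, and 4 of them rose. The 10 surface colonocyte markers summed to 1231 to 7568 FPKM in AOM/DSS libraries, against 6894 and 6975 FPKM in Control libraries, and 5 of them fell. Counts of markers that rose or fell are limma calls over the AOM/DSS groups against Control. Among all genes, 14.6% rose and 16.9% fell in that comparison. In such whole-tissue RNA, fewer cells of a type and less RNA per cell cannot be told apart, and the part of tissue makeup in the claudin values was not tested.

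The claudin pool of the Control colon was made up mainly of Cldn7 and Cldn3. In the AOM/DSS libraries Cldn4 joined these as the third abundant claudin, and Cldn15 was lower. Between the AOM/DSS groups and Control, 1 of the 9 claudins rose, Cldn4, and 1 fell, Cldn15. Among all 14061 genes tested, 14.6% rose and 16.9% fell in this comparison. In Model against Control alone, 1 of the 9 rose, again Cldn4, and none fell by limma at an adjusted p of 0.05, while 2 of the 9 had an unadjusted p under 0.05 (Cldn4 and Cldn12). There, 6.84% of all genes rose and 9.34% fell, and 4464 of the 14061 genes had an unadjusted p under 0.05. The median log2 change of the 9 was -0.24 in the AOM/DSS groups and -0.39 in the Model group, each against Control, beside medians of 0.02 over all genes in both comparisons. All changes are differences of log2(FPKM + 1) with their standard errors, from 1 limma fit over the 10 libraries with Benjamini-Hochberg adjustment over all genes.

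**Figure D1:**
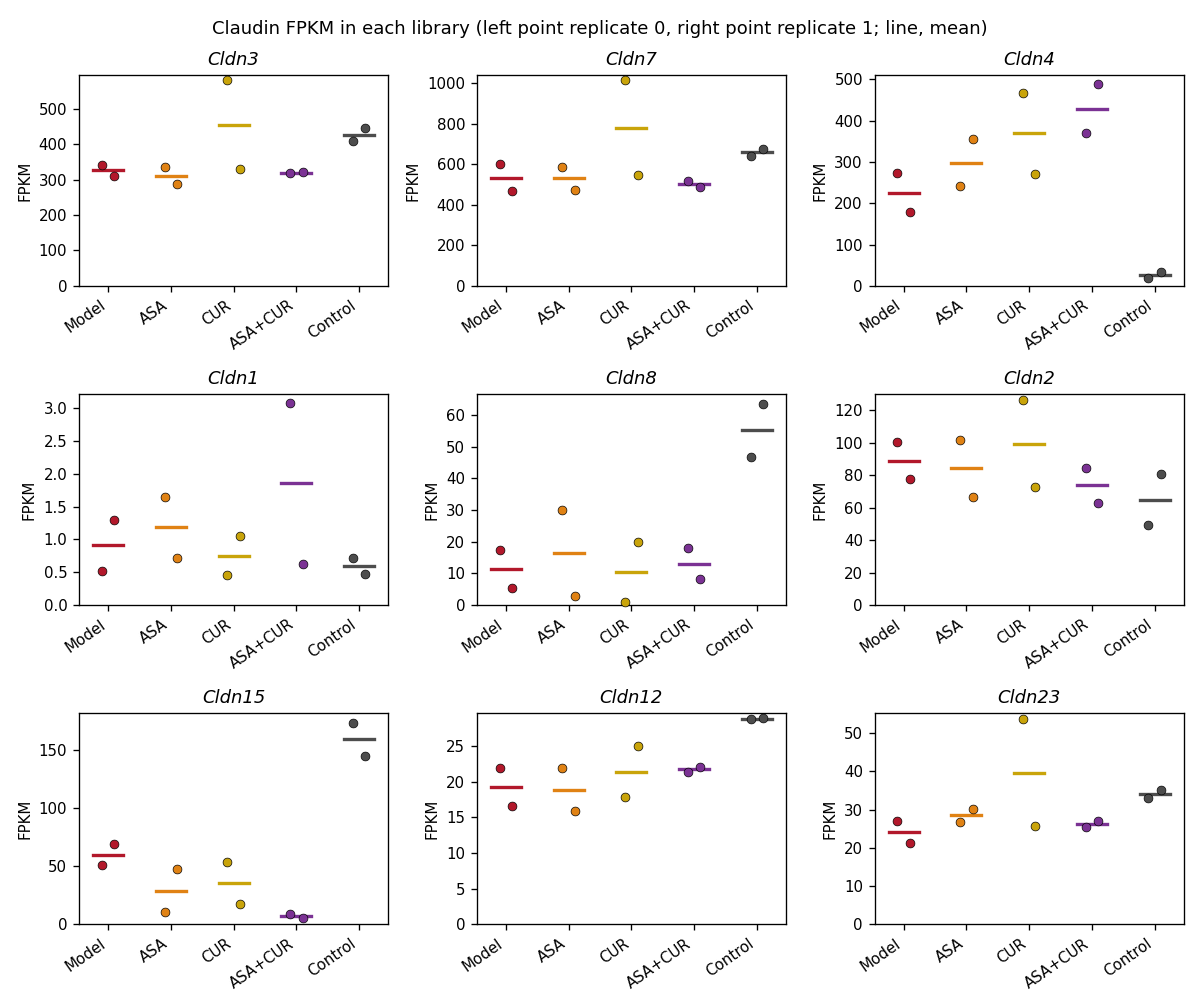
FPKM of the 9 claudins in each of the 10 libraries, by group, with 2 points per group and a line at their mean, on linear axes that start at 0. Cldn4 lies between 179 and 487 FPKM in the 8 AOM/DSS libraries, above both Control libraries, and Cldn15 between 5.34 and 69.3 FPKM, below both.

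Cldn4 encodes a sealing claudin that limits the passage of cations. The gene lies at chr5:134945123-134946934 on the minus strand of GRCm38, 39.3 kb from Cldn3. Its level was 273 and 179 FPKM in the Model libraries, 241 and 356 FPKM in the ASA libraries, 468 and 270.1 FPKM in the CUR libraries and 369.6 and 487 FPKM in the ASA+CUR libraries, against 18.2 and 34.6 FPKM in the Control libraries. Every AOM/DSS library stood above both Control libraries, and both ASA+CUR libraries stood above both Model libraries. The Model mean of 226 ± 66.9 FPKM was 8.56 times the Control mean of 26.4 ± 11.5 FPKM (SD, n = 2 each), a log2 change of 3.09 ± 0.40 (adjusted p = 0.00289, limma). Over the 4 AOM/DSS groups the change was 3.59 ± 0.31 (95% interval 2.87 to 4.31, adjusted p = 0.000207, limma), with means of 330.3 FPKM in AOM/DSS libraries and 26.4 FPKM in Control libraries. These comparisons and those below share the Control libraries. Cldn4 also rose in ASA against Control (3.49 ± 0.40, adjusted p = 0.00107), in CUR against Control (3.77 ± 0.40, adjusted p = 0.00106) and in ASA+CUR against Control (4.02 ± 0.40, adjusted p = 0.000535), by limma.

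Cldn3, also a sealing claudin, lies at chr5:134986214-134987476 on the plus strand. Its level was 341 and 311 FPKM in the Model libraries, 334 and 287 FPKM in the ASA libraries, 580.5 and 329 FPKM in the CUR libraries and 318 and 320.5 FPKM in the ASA+CUR libraries, against 408 and 445 FPKM in the Control libraries. All AOM/DSS libraries but CUR replicate 0 lay below both Control libraries. The log2 change was -0.39 ± 0.25 in the Model group (adjusted p = 0.342, limma) and -0.31 ± 0.20 over the AOM/DSS groups (adjusted p = 0.278, limma), each against Control. Without CUR replicate 0 the change over the AOM/DSS groups was -0.41 and passed the threshold (adjusted p = 0.0186, limma), whereas quantile normalization turned it to 0.02. The ratio of Cldn4 to Cldn3 was 0.574 to 1.52 in the AOM/DSS libraries, against 0.0447 and 0.0776 in the Control libraries, with no overlap. The overlapping gene Wbscr25 was listed at no more than 0.632 FPKM in any library.

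Cldn7, a claudin that is also found along the lateral membrane and binds EpCAM, lies at chr11:69964779-69967886 and had the highest FPKM of the 9 claudins in every library. It measured 599 and 466 FPKM in the Model libraries, 588 and 472 FPKM in the ASA libraries, 1013 and 548 FPKM in the CUR libraries and 517 and 489.8 FPKM in the ASA+CUR libraries, against 639 and 676 FPKM in the Control libraries. CUR replicate 0 was the highest library and the other AOM/DSS libraries lay below both Control libraries. The log2 change was -0.32 ± 0.29 for Model (adjusted p = 0.511, limma) and -0.21 ± 0.23 for the AOM/DSS groups (adjusted p = 0.52, limma), each against Control, and its sign turned under quantile normalization. The table splits Cldn7 between 2 transcripts with different start sites. The less abundant of them in every library held 9.16 to 44.8% of the Cldn7 FPKM in the AOM/DSS libraries, against 14.5 and 8.93% in the Control libraries, and CUR replicate 0 held the highest share.

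Cldn8 encodes a sealing claudin known in the distal colon and the kidney collecting duct as a barrier to the back-leak of sodium, and lies at chr16:88560826-88563183. Its level was 17.3 and 5.42 FPKM in the Model libraries, 29.9 and 2.93 FPKM in the ASA libraries, 1.02 and 19.9 FPKM in the CUR libraries and 17.9 and 8.10 FPKM in the ASA+CUR libraries, against 46.8 and 63.5 FPKM in the Control libraries. Every AOM/DSS library lay below both Control libraries, but replicates of the ASA and of the CUR group stood far apart. The Model mean was 11.4 ± 8.41 FPKM and the Control mean 55.1 ± 11.8 FPKM (SD, n = 2 each). The change did not pass the test in Model against Control (-2.36 ± 1.23, 95% interval -5.19 to 0.48, adjusted p = 0.234, limma) or in the AOM/DSS groups against Control (-2.47 ± 0.97, adjusted p = 0.0878, limma). It passed over the AOM/DSS groups when ASA replicate 0 (adjusted p = 0.0412) or CUR replicate 1 (adjusted p = 0.0296) was left out of the limma fit, and with each library centred on its epithelial markers (adjusted p = 0.0478), which makes 3 of 18 alternatives.

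Cldn1, a claudin that is indispensable to the skin barrier, lies at chr16:26356645-26371839 and was near the floor of 1 FPKM used to select genes for testing. It was 0.527 and 1.30 FPKM in the Model libraries, 1.65 and 0.723 FPKM in the ASA libraries, 0.461 and 1.05 FPKM in the CUR libraries and 3.08 and 0.630 FPKM in the ASA+CUR libraries, against 0.715 and 0.482 FPKM in the Control libraries. The groups overlapped, and the change was 0.23 ± 0.45 for Model (adjusted p = 0.768, limma) and 0.37 ± 0.35 for the AOM/DSS groups (adjusted p = 0.458, limma), each against Control. The 2 libraries highest in Cldn1, ASA+CUR replicate 0 and ASA replicate 0, were also the 2 highest in Krt5, a keratin of squamous epithelium, at 212 and 94.5 FPKM, while the other AOM/DSS libraries had 0.0308 to 10.3 FPKM and the Control libraries 0.161 and 0.0667 FPKM. The 15 squamous markers summed to 134 to 1140 FPKM in the AOM/DSS libraries, against 145 and 153 FPKM in the Control libraries, and 8 of the 13 tested rose over the AOM/DSS groups, where 14.6% of all genes rose. Perp alone gave 137 and 146 FPKM of the Control sums, and 105 to 244 FPKM in the AOM/DSS libraries. The order of Cldn1 and Krt5 was not shared by the other libraries. Model replicate 0, next highest in Krt5, had 0.527 FPKM of Cldn1. Model replicate 1, next highest in Cldn1 at 1.30 FPKM, had the lowest squamous sum. CUR replicate 0, lowest in Cldn1 at 0.461 FPKM, had a squamous sum of 473 FPKM. The part of the squamous markers in the Cldn1 and Cldn4 values was not tested.

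Among the pore-forming members, Cldn15 lies at chr5:136967869-136975845 on the plus strand. It measured 50.8 and 69.3 FPKM in the Model libraries, 10.4 and 47.5 FPKM in the ASA libraries, 53.9 and 17.6 FPKM in the CUR libraries and 8.90 and 5.34 FPKM in the ASA+CUR libraries, against 173 and 145 FPKM in the Control libraries. Every AOM/DSS library lay below both Control libraries, and the ASA+CUR libraries were the 2 lowest of all 10. Over the 4 AOM/DSS groups Cldn15 fell by 2.71 ± 0.55 on the log2 scale (95% interval -3.97 to -1.44, adjusted p = 0.00811, limma), with means of 33.0 FPKM in AOM/DSS libraries and 159 ± 19.9 FPKM in Control libraries (n = 8 and 2). That call was lost when Control replicate 0 (adjusted p = 0.0828) or Control replicate 1 (adjusted p = 0.0671) was left out of the limma fit, with changes of -2.58 and -2.83. A lone Control library is assumed there to vary like the libraries of the other groups. In Model against Control it was -1.41 ± 0.69 (95% interval -3.01 to 0.20, adjusted p = 0.211, limma), with a Model mean of 60.0 ± 13.1 FPKM (SD, n = 2).

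By diet, Cldn15 fell in ASA against Control (-2.76 ± 0.69, adjusted p = 0.0258) and in ASA+CUR against Control (-4.33 ± 0.69, adjusted p = 0.00364), by limma. In CUR against Control it was -2.32 ± 0.69 and missed the threshold (adjusted p = 0.0601, limma). Without CUR replicate 0 that change was -3.10 and passed (adjusted p = 0.0456, limma), and without CUR replicate 1 it was -1.54 (adjusted p = 0.189, limma). It passed in 3 of 13 alternatives, the others being a pseudocount of 5 (adjusted p = 0.0498) and epithelial centring (adjusted p = 0.0056), by limma. The ASA call was lost without ASA replicate 0 or either Control library, where the limma adjusted p was 0.0969 to 0.130, with changes of -1.72 without ASA replicate 0 and -2.64 and -2.89 without a Control library. Together with Cldn4, 1 of 9 claudins rose and 1 fell in ASA against Control, where 9.78% of all genes rose and 12.7% fell. In ASA+CUR against Control 1 of 9 rose and 1 fell, where 13.1% of all genes rose and 16.4% fell. In CUR against Control 1 of 9 rose and none fell by limma, where 6.67% of all genes rose and 8.34% fell, and 3 of the 9 had an unadjusted p under 0.05 (Cldn4, Cldn8 and Cldn15).

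Cldn2, the other pore-forming member, lies at chrX:139800808-139811386. It had 101 and 77.4 FPKM in the Model libraries, 102 and 66.8 FPKM in the ASA libraries, 126 and 72.7 FPKM in the CUR libraries and 84.7 and 62.9 FPKM in the ASA+CUR libraries, against 49.3 and 80.4 FPKM in the Control libraries. In each AOM/DSS group 1 library lay above both Control libraries and the other lay between them. The change was 0.48 ± 0.35 for Model (adjusted p = 0.399, limma) and 0.42 ± 0.28 for the AOM/DSS groups (adjusted p = 0.286, limma), each against Control. The ratio of Cldn15 to Cldn2 was 0.0849 to 0.896 in the AOM/DSS libraries, against 3.52 and 1.81 in the Control libraries. Cldn15 was thus the more abundant pore-forming claudin in both Control libraries and the less abundant in all 8 AOM/DSS libraries, per length.

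Cldn12, a claudin without the usual C-terminal binding motif for scaffold proteins, lies at chr5:5505015-5514976 and was spread over 4 transcripts in the table. It had 16.6 to 21.9 FPKM in the Model libraries, 15.9 to 21.9 FPKM in the ASA libraries, 17.9 to 25.0 FPKM in the CUR libraries and 21.4 to 22.1 FPKM in the ASA+CUR libraries, against 28.8 and 29.0 FPKM in the Control libraries. Both Control libraries were above all AOM/DSS libraries, yet the change missed the threshold in the Model group (-0.57 ± 0.22, adjusted p = 0.116, limma) and over the AOM/DSS groups (-0.50 ± 0.17, adjusted p = 0.0604, limma). It passed over the AOM/DSS groups with median scaling (adjusted p = 0.0382, limma) and without Model replicate 0, ASA replicate 0 or CUR replicate 1 (adjusted p of 0.0293 to 0.0498, limma). Cldn23, a single-exon claudin of surface epithelium, lies at chr8:35824709-35826559. It had 21.3 to 53.6 FPKM in the AOM/DSS libraries, with CUR replicate 0 the highest, against 33.0 and 35.2 FPKM in the Control libraries. Its change was -0.49 ± 0.30 for Model (adjusted p = 0.308, limma) and -0.24 ± 0.24 for the AOM/DSS groups (adjusted p = 0.458, limma), each against Control. Without CUR replicate 0 the change over the AOM/DSS groups was -0.37 and passed (adjusted p = 0.0451, limma).

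**Figure D2:**
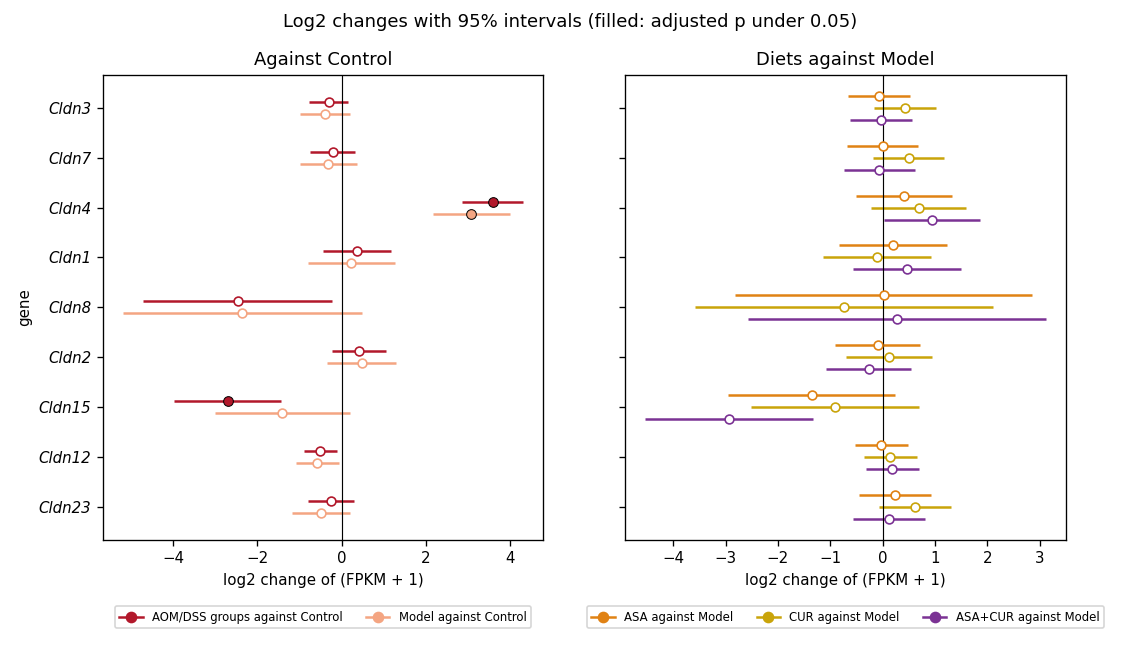
Log2 changes of the 9 claudins with 95% intervals, against Control on the left and of the 3 diets against Model on the right, with filled points for an adjusted p under 0.05. Cldn4 is filled in both comparisons with Control and Cldn15 in that of the AOM/DSS groups, and no point is filled on the right.

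As shares of the summed FPKM of the 9 claudins, Cldn4 made up 19.1 and 15.6% in the Model libraries, 17.8 and 27.8% in the ASA libraries, 20.2 and 20.6% in the CUR libraries and 27.0 and 34.2% in the ASA+CUR libraries, against 1.31 and 2.29% in the Control libraries. Cldn15 made up 0.381 to 6.04% in the AOM/DSS libraries, against 12.4 and 9.62% in the Control libraries. Neither claudin's share overlapped between the AOM/DSS and the Control libraries. The sealing claudins Cldn3, Cldn4 and Cldn7 together made up 83.3 to 91.1% in the AOM/DSS libraries, against 76.2 and 76.6% in the Control libraries. This higher share lay in Cldn4, since Cldn3 and Cldn7 alone made up 56.9 to 68.9%, against 74.9 and 74.3%. The summed level of the 9 was 1147 to 2314 FPKM in the AOM/DSS libraries, with CUR replicate 0 at the top, against 1397 and 1510.2 FPKM in the Control libraries, so that the groups overlapped in the total and differed in its makeup.

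The ratio of the pore-forming claudins (Cldn2 and Cldn15) to the sealing claudins (Cldn1, Cldn3, Cldn4, Cldn7 and Cldn8), in summed FPKM, was 0.138 ± 0.0208 in the Model group, 0.0981 ± 0.00578 in the ASA group, 0.0823 ± 0.00705 in the CUR group and 0.0643 ± 0.0170 in the ASA+CUR group, against 0.193 ± 0.0108 in the Control group (SD, n = 2 each). It was 0.123 and 0.152 in the Model libraries, 0.0940 and 0.102 in the ASA libraries, 0.0873 and 0.0773 in the CUR libraries and 0.0763 and 0.0522 in the ASA+CUR libraries, against 0.200 and 0.185 in the Control libraries. The Control libraries had the highest ratios, followed by the Model libraries, and the libraries of the 3 drug diets lay below both. The place of the Control group rested on Cldn15. With Cldn2 alone as the pore-forming claudin, Control had the lowest group mean, at 0.0551. The 4 AOM/DSS groups kept their order by mean: Model was highest at 0.0811, followed by ASA at 0.0725, CUR at 0.0617 and ASA+CUR at 0.0586. Single libraries did not hold this order. Control replicate 1 lay above both CUR libraries, ASA replicate 1 and ASA+CUR replicate 1, and ASA replicate 0 lay above both Model libraries. The ratio compares transcript levels and was not tested.

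**Figure D3:**
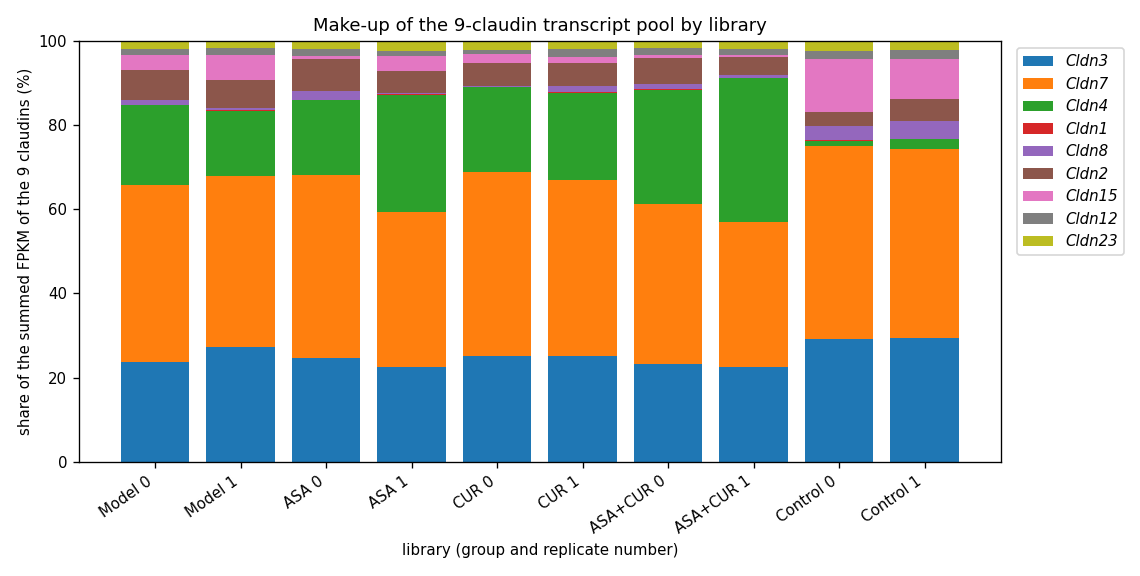
Share of each claudin in the summed FPKM of the 9, in percent, with 1 stacked bar per library from Model to Control. Cldn4 takes 15.6 to 34.2% in the AOM/DSS libraries and 1.31 and 2.29% in the Control libraries, and Cldn15 shrinks to 0.381 to 6.04% in the AOM/DSS libraries, against 12.4 and 9.62% in the Control libraries.

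Among the drug diets, none of the 9 claudins passed the test against Model or in the combination against a single drug. In ASA against Model 0.0142% of all genes passed, in CUR against Model 0.00711% and in ASA+CUR against Model 0.0142%, while 0% passed in ASA+CUR against ASA and 0% in ASA+CUR against CUR, by limma. At an unadjusted p under 0.05, ASA and CUR against Model held 0 of the 9 claudins each, ASA+CUR against Model 2 (Cldn4 and Cldn15), ASA+CUR against ASA 0 and ASA+CUR against CUR 1 (Cldn15). Over all genes, those unadjusted counts were 335, 684, 1416, 399 and 1944 in the same order of comparisons. Both ASA+CUR libraries lay below both Model libraries in Cldn15, with a change of -2.93 ± 0.69 (95% interval -4.53 to -1.33, adjusted p = 0.332, limma). The Cldn15 means were 7.12 ± 2.52 FPKM in the ASA+CUR group and 60.0 ± 13.1 FPKM in the Model group (SD, n = 2 each). For Cldn4 the change in ASA+CUR against Model was 0.94 ± 0.40 (95% interval 0.03 to 1.85, adjusted p = 0.486, limma), with means of 428 ± 83.1 FPKM in the ASA+CUR group and 226 ± 66.9 FPKM in the Model group.

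For the single drugs, Cldn15 changed by -1.36 (95% interval -2.96 to 0.24) in ASA against Model and by -0.92 (95% interval -2.52 to 0.69) in CUR against Model, while Cldn4 had 0.40 (95% interval -0.51 to 1.32) and 0.68 (95% interval -0.23 to 1.60) in those comparisons. The Cldn15 values rested on single libraries: in ASA against Model the change was -0.31 without ASA replicate 0 and -2.40 without ASA replicate 1, and in CUR against Model -1.70 without CUR replicate 0 and -0.13 without CUR replicate 1. In ASA+CUR against ASA, Cldn15 had -1.57 (95% interval -3.17 to 0.03) and Cldn4 0.53 (95% interval -0.38 to 1.45). In ASA+CUR against CUR, Cldn15 had -2.01 (95% interval -3.61 to -0.41, adjusted p = 0.328, limma) and Cldn4 0.25 (95% interval -0.66 to 1.17). These Cldn15 changes were -2.61 without ASA replicate 0 and -0.53 without ASA replicate 1, and -1.23 without CUR replicate 0 and -2.79 without CUR replicate 1. The intervals are wide enough to hold both no change and several-fold changes of Cldn15 under a single drug.

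Cldn15 levels among the AOM/DSS libraries were high or low together with Cdx2 and opposite to Hoxd13, genes that were picked after their values were seen. Cdx2, a transcription factor of intestinal identity from the pan-epithelial list, was 64.1 and 62.8 FPKM in the Model libraries, 5.22 and 61.1 FPKM in the ASA libraries, 126 and 11.4 FPKM in the CUR libraries and 6.34 and 7.05 FPKM in the ASA+CUR libraries, against 139 and 124 FPKM in the Control libraries. Hoxd13, a gene of the most distal gut, was at 65.2 to 87.7 FPKM in 4 AOM/DSS libraries, namely ASA replicate 0, CUR replicate 1 and both ASA+CUR libraries, and at 0.0323 to 8.35 FPKM in the other 4, against 3.52 and 1.86 FPKM in the Control libraries. The 4 libraries high in Hoxd13 had 5.34 to 17.6 FPKM of Cldn15 and 5.22 to 11.4 FPKM of Cdx2, and the other 4 had 47.5 to 69.3 FPKM of Cldn15 and 61.1 to 126 FPKM of Cdx2. The replicates of the ASA and of the CUR group were thus split between these ranges in Cldn15, while both Model libraries were in one range and both ASA+CUR libraries in the other. The distal list was not uniform over these libraries, since Hoxa11 was at 3.18 to 3.64 FPKM in the 4 libraries high in Hoxd13 and at 12.1 to 19.6 FPKM in the other 4, against 7.35 and 5.42 FPKM in the Control libraries, and Hoxa13 was at 10.9 to 19.2 FPKM in all 8, against 20.0 and 20.6 FPKM in the Control libraries. Cldn4 spanned 241 to 487 FPKM in the first 4 libraries and 179 to 468 FPKM in the other 4, which overlap. Cdx1, also from the pan-epithelial list, did not divide with Cdx2. It spanned 61.3 to 119 FPKM in the first 4 libraries and 56.7 to 119 FPKM in the other 4, against 242.5 and 249.6 FPKM in the Control libraries.

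For Cldn8 the companion was another gene. Hoxb13, a marker of the distal colon, was lowest in ASA replicate 1, CUR replicate 0 and Model replicate 1, at 15.0, 19.5 and 27.9 FPKM, and these were the 3 libraries lowest in Cldn8, at 2.93, 1.02 and 5.42 FPKM. The remaining AOM/DSS libraries had 94.7 to 296 FPKM of Hoxb13 and 8.10 to 29.9 FPKM of Cldn8, against 186 and 269.7 FPKM of Hoxb13 and 46.8 and 63.5 FPKM of Cldn8 in the Control libraries. The distal position list as a whole, with 6 of its 7 genes in the table, summed to 44.3 to 400.0 FPKM in the AOM/DSS libraries, against 217 and 298 FPKM in the Control libraries, and the 6 proximal genes to 21.8 to 36.9 FPKM, against 61.9 and 66.0 FPKM. None of the 6 distal genes was called in Model or in ASA against Control, 1 fell in CUR against Control and over the AOM/DSS groups (Hoxa13), and 2 rose in ASA+CUR against Control (Hoxd11 and Hoxd12), by limma. Of the proximal genes, Hoxb5 fell in each single group against Control and over the AOM/DSS groups, and Cck fell over the AOM/DSS groups, where 16.9% of all genes fell, beside 8.34 to 16.4% in the single groups. Not all of these values moved with the claudins across the AOM/DSS libraries. The proximal sum was highest there in ASA replicate 0, at 36.9 FPKM, where Cldn15 was at 10.4 FPKM. The part of the position genes in the claudin differences was not tested.

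**Figure D4:**
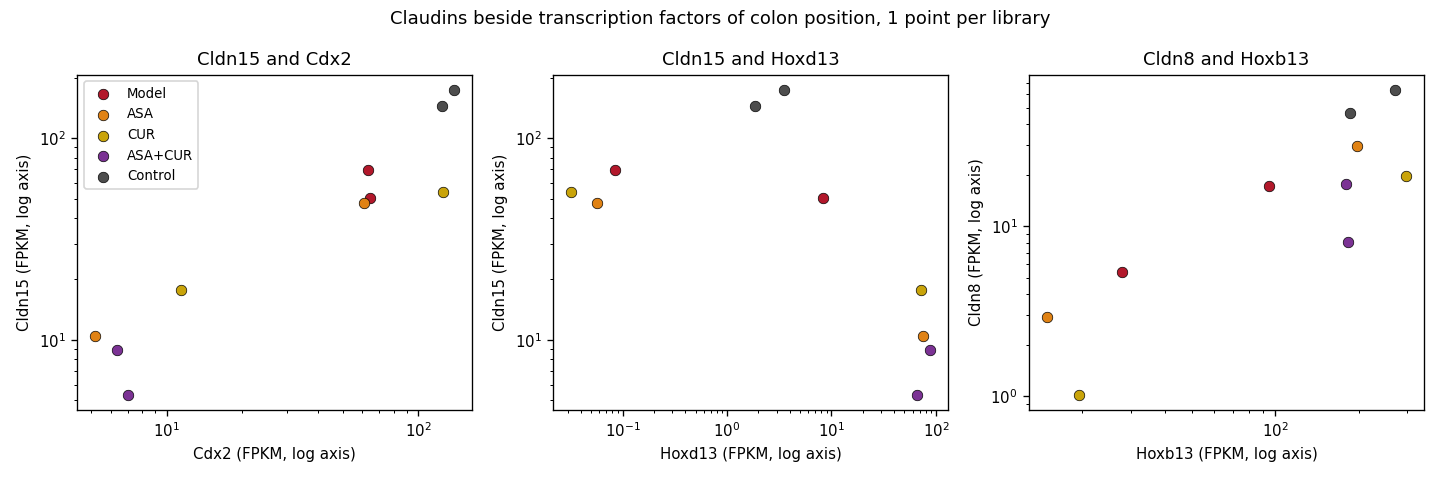
Cldn15 against Cdx2, Cldn15 against Hoxd13 and Cldn8 against Hoxb13, in FPKM on log axes, with 1 point per library coloured by group. Points with Cldn15 at 5.34 to 17.6 FPKM have Cdx2 at 5.22 to 11.4 FPKM and Hoxd13 at 65.2 to 87.7 FPKM, and the 3 points lowest in Cldn8 are the 3 lowest in Hoxb13.

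Genes whose profile over the 10 libraries was closest to that of a claudin were ranked by the root mean square difference of centred log2(FPKM + 1) among 13134 genes, for the 3 claudins that varied most. For Cldn15 these were Ckb, the brain-type creatine kinase (0.40), Penk, the precursor of enkephalins (0.46), and B3gnt6, an enzyme of mucin-type glycan synthesis (0.49), beside a median of 1.59 over all candidates. For Cldn8 they were Cyp2c68, a cytochrome P450 (0.44), Maob, a monoamine oxidase (0.47), and Adh1, an alcohol dehydrogenase (0.57), beside a median of 1.54. For Cldn4 they were Dkk2, a secreted Wnt pathway regulator (0.29), Marcksl1, an actin-binding MARCKS relative (0.33), and Slc4a11, a membrane transporter (0.34), beside a median of 1.52. Being the smallest of 13134 differences, these values lie below the medians by selection, and no link between the genes was tested.

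Of 11 other strand or tricellular junction genes, 10 were tested and none was called in Model against Control by limma, where Lsr and Ocln had an unadjusted p under 0.05, while over the AOM/DSS groups 1 rose and 2 fell. The shares of all genes were 6.84% higher and 9.34% lower in Model, and 14.6% higher and 16.9% lower over the AOM/DSS groups, so that the count of strand genes was near the share of all genes in the second comparison. Lsr, the receptor that marks tricellular contacts, rose by 0.54 ± 0.13 (144 FPKM in AOM/DSS and 98.2 FPKM in Control libraries, adjusted p = 0.0140, limma). Ocln, which encodes occludin, fell by 0.63 ± 0.19 (30.0 FPKM in AOM/DSS and 46.5 FPKM in Control libraries, adjusted p = 0.0372, limma), although CUR replicate 1 lay within the Control range, and Jam3, an adhesion molecule, fell by 0.82 ± 0.24 (adjusted p = 0.0329, limma).

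Of 24 scaffold and polarity genes, 23 were tested, and 1 rose and 1 fell in Model against Control, while 2 rose and 4 fell over the AOM/DSS groups, which is near the shares of all genes in the AOM/DSS comparison (14.6% higher and 16.9% lower) and beside 6.84% higher and 9.34% lower in the Model comparison. Prkcz, an atypical protein kinase C of the polarity complex, had 7.10 to 13.2 FPKM in the AOM/DSS libraries, against 27.1 and 26.0 FPKM in the Control libraries. It fell by 1.22 ± 0.15 in Model (adjusted p = 0.00287, limma) and by 1.34 ± 0.12 over the AOM/DSS groups (adjusted p = 0.00025, limma), against Control. Arhgef2, an exchange factor that docks at the junction, rose in both (0.64 ± 0.13, adjusted p = 0.0186, in Model, limma), with 25.4 to 39.8 FPKM in the AOM/DSS libraries, against 17.2 and 16.6 FPKM in the Control libraries. Mpdz, Magi1 and Ybx3 were the other genes that fell over the AOM/DSS groups.

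Of 8 genes for claudin-binding membrane proteins and proteases, 3 rose and 1 fell in both comparisons, beside 6.84% of all genes higher and 9.34% lower in Model and 14.6% higher and 16.9% lower over the AOM/DSS groups. Epcam, whose product binds claudin-7, had 746 to 1352 FPKM in the AOM/DSS libraries, against 805 and 912 FPKM in the Control libraries. Mmp7, the epithelial protease matrilysin, had 220.0 to 526 FPKM in the AOM/DSS libraries, against 0.811 and 1.44 FPKM in the Control libraries, and Mmp9, a gelatinase, also rose. Prss8, a membrane-anchored serine protease, fell by 1.27 ± 0.14 in Model (adjusted p = 0.00164, limma) and by 1.30 ± 0.11 over the AOM/DSS groups (adjusted p = 0.00018, limma), against Control, with 17.9 FPKM in AOM/DSS and 45.1 FPKM in Control libraries. None of these 3 lists held a called gene in a comparison between diets.

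Of the 22 claudins outside the 9, 5 reached 1 FPKM in any library, 10 stayed under it and 7 were at 0 throughout. Cldn14, a claudin known from the kidney and the inner ear, had 0.944 to 2.62 FPKM in the AOM/DSS libraries, against 5.22 and 4.81 FPKM in the Control libraries, and fell in Model against Control (-1.19 ± 0.33, adjusted p = 0.0440, limma) and over the AOM/DSS groups (-1.24 ± 0.26, adjusted p = 0.00899, limma). Cldn5, the claudin of endothelium, had 3.54 to 15.8 FPKM in the AOM/DSS libraries, against 8.13 and 7.70 FPKM in the Control libraries. It was highest in Model replicate 1, the library highest in the endothelial marker Pecam1 (53.9 FPKM). The other libraries did not share this order. The Control libraries, next highest in Cldn5, had 18.7 and 20.4 FPKM of Pecam1. ASA replicate 1, second in Pecam1 at 32.8 FPKM, had 4.38 FPKM of Cldn5. The 7 endothelial markers summed to 54.3 to 165 FPKM in the AOM/DSS libraries, against 54.2 and 56.4 FPKM in the Control libraries. Cldn6, a claudin of embryonic epithelia, had 0.514 to 3.84 FPKM in the AOM/DSS libraries and was listed at 0 in both Control libraries. Cldn10 reached 1.21 FPKM and Cldn34c1 1.06 FPKM.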

How the data were processed

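RNA libraries were made with the TruSeq RNA kit v2, per the labels' protocols. The authors deposited FPKM values per transcript and library. Tools in the submitters' processing notes are TopHat2 2.0.9, Bowtie2 2.1.0.0, bcl2fastq 2.17.1.14 and Cuffdiff, with mm10 (GRCm38) as the build. The sources used here give no strand handling. Any further scaling of the deposited FPKM is unknown, and so is the depth. Of 30073 transcripts, 29443 were named through RefSeq and 179 through GENCODE, and 451 were not matched. FPKM was summed per gene, and the 14061 genes that reached 1 FPKM in 2 or more libraries were fitted as log2(FPKM + 1) with limma 3.58.1 (trend) in R 4.3.3, all 10 libraries in 1 fit with 5 residual degrees of freedom, two-sided, threshold 0.05. The pseudocount understates changes of low genes such as Cldn1. The script was tested on simulated data. Alternatives were other pseudocounts, filters, scalings, transcript choices, sample sets and a replicate block. Members, marker lists and junction lists were chosen with earlier results of these data known. Named were all 9 members, up to 6 called junction genes per list and comparison with the smallest p, other claudins reaching 1 FPKM, and the 3 closest profiles for each of the 3 most variable members. Values of some genes counted in these lists are not reported here. Positional, keratin and endothelial genes beside them were chosen after their values were seen.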

Additional observations from a re-analysis of the deposited data

How the results depend on the processing

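Cldn4 was called higher under every alternative run in all 5 comparisons with Control (log2 change over the AOM/DSS groups 3.15 to 4.03, highest adjusted p 0.00501; in Model 2.64 to 3.53, highest adjusted p 0.0255). Cldn15 was called over the AOM/DSS groups in 16 of 18 alternatives (adjusted p 0.000272 to 0.0828) and in ASA+CUR against Control in 14 of 14. Of 547 values for single claudins, 518 kept direction and call, 6 lost a call, 17 gained one and 6 turned in sign. Turned were Cldn7 in Model against Control (0.0889 with quantile normalization and 0.000929 with epithelial centring), Cldn3 and Cldn7 over the AOM/DSS groups with quantile normalization (0.0225 and 0.21), Cldn1 in Model without Model replicate 1 (-0.0626, and 0.53 without Model replicate 0) and Cldn4 in ASA+CUR against CUR without CUR replicate 1 (-0.14, and 0.65 without CUR replicate 0). The cause was not tested.

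In counts of called claudins, a pseudocount of 5 gave 2 in CUR against Control. Fitting only the groups compared gave 3 in Model against Control (Cldn4 higher, Cldn8 and Cldn15 lower), 1 in ASA against Control and 7 in ASA+CUR against Control. Of these comparisons, an all-gene count under this setting is given below only for ASA+CUR against Control. Centring each library on the median of the pan-epithelial genes, chosen after seeing the data, gave 2 in CUR against Control and 1 in ASA+CUR against Model (Cldn15, adjusted p = 0.0445, limma, against 0.0445 to 0.937 over its alternatives). With 1 library left out, the lone library of its group is assumed to vary like the other groups. Leaving out 1 library gave 1 called claudin throughout in Model, and 1 to 4 over the AOM/DSS groups, 2 to 3 in ASA+CUR and 1 to 3 in ASA and CUR, each against Control. It gave 0 to 3 in ASA+CUR against CUR, with 3 without CUR replicate 1, and 0 in the other diet comparisons.

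Over all genes, CUR against Model had 0 called genes with a pseudocount of 0.1 or 5, no filter, quantile normalization, the replicate block or only the groups compared, and to 2 with centring. ASA against Model had 0 with a pseudocount of 5 or only the groups compared, 1 with the highest transcript per gene and 4 with centring. ASA+CUR against Model had 0 with a pseudocount of 5 or the replicate block, 1 with the highest transcript, 4 with only the groups compared and 9 with centring. ASA+CUR against ASA had 2 with no filter and 1 with only the groups compared or without CUR replicate 0. ASA+CUR against CUR had 1 with a pseudocount of 0.1 or only the groups compared and 9 with centring. With only the groups compared, CUR against Control had 1395 and ASA+CUR against Control 6758, against 2110 and 4148 in the fit over all 10 libraries. The larger count of called claudins in ASA+CUR against Control under this setting thus came with more calls over all genes.

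Centring shifted all genes by 0.32 in Model, 0.26 in ASA, 0.33 in ASA+CUR, -0.08 in CUR and 0.20 over the AOM/DSS groups (log2, against Control). It gave 1255 genes in Model (936 higher and 319 lower, against 962 and 1314), 2741 over the AOM/DSS groups (1711 and 1030, against 2057 and 2378), 1776 in ASA (1134 and 642, against 1375 and 1788), 1156 in CUR and 2407 in ASA+CUR (1621 and 786, against 1843 and 2305). Leaving out 1 library gave 553 to 3073 genes in Model, 1567 to 5417 over the AOM/DSS groups, 1481 to 5354 in ASA+CUR, 1133 to 4142 in ASA and 698 to 3060 in CUR, against Control. It gave 0 to 3 in ASA+CUR, 0 to 2 in ASA and 1 to 3 in CUR against Model, 0 to 1 in ASA+CUR against ASA and 0 to 1956 in ASA+CUR against CUR, the last without CUR replicate 1.

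The pore-forming to sealing ratio was 0.105 in ASA, 0.0981 in CUR and 0.207 in Control with the highest transcript per gene, and 0.0725 in ASA, 0.0617 in CUR, 0.0811 in Model and 0.0551 in Control with Cldn2 alone. Whether replicate numbers pair the libraries was left undecided. Deviations of same-numbered libraries correlated at -0.21 to 0.33 over 10 pairs of groups, 3 of them over 0.1 and 3 under -0.1. With only 2 libraries per group, these values cannot decide it. With the replicate block, the counts of called claudins did not change. Unknown read depth and 2 libraries per group limit what smaller changes could be seen.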
